A study of Homo sapiens with 6 samples.

Results

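The genes described here are the 2 STAT5 transcription factors (STAT5A and STAT5B), 4 feedback inhibitors of cytokine signalling that STAT5 is known to induce (CISH, SOCS1, SOCS2 and SOCS3), the 3 PIM kinases (PIM1, PIM2 and PIM3) and the repressor BCL6. These 10 genes were taken by symbol from the 58440 gene identifiers of the count table, and all 10 passed the filter on low counts that left 18380 genes. RNA was sequenced from 3 libraries labelled IRAIN over-expression (called IRAIN libraries here) and from 3 labelled wild type. All were made from K562, a human cell line established from chronic myeloid leukaemia, which carries the BCR-ABL1 fusion kinase. IRAIN is a noncoding transcript that runs antisense within the IGF1R locus, and the stated aim of the series concerns drug resistance, although no drug treatment is given for any of these libraries. The count table names the wild-type columns vector, so they are called controls here, and the sources used here name neither the vector nor its promoter, nor whether the over-expressing cells were a clone or a pool.

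STAT5 proteins are latent transcription factors that are phosphorylated on tyrosine by JAK kinases downstream of cytokine receptors, and in chronic myeloid leukaemia also through BCR-ABL1. Phosphorylated STAT5 binds a short palindromic motif in DNA and switches on CISH, SOCS genes and PIM1. The CISH and SOCS proteins then bind receptors or JAKs and damp the signal, the PIM kinases promote survival and protein synthesis, and BCL6 is a zinc-finger repressor that STAT5 is known to repress in several blood cells.

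The libraries held 11558983 to 13303139 counts in genes. IRAIN had 97, 94 and 106 counts in the IRAIN libraries, against 0, 0 and 1 in the controls. All 10 K562 and erythroid markers checked stood at 1 CPM or more in each of the 6 libraries (CPM, the count scaled to library size with TMM factors, the trimmed mean of M-values). Their summed level was 1420 to 1470 CPM in the IRAIN libraries and 1570 to 1610 CPM in the controls. Markers of T cells summed to 1.44 to 2.28 CPM in the IRAIN libraries and 2.59 to 3.4 CPM in the controls, and those of myeloid cells to 6.99 to 9.58 CPM in the IRAIN libraries and 5.26 to 5.51 CPM in the controls. B-cell markers summed to 6.5 to 6.92 CPM in the IRAIN libraries and 4.94 to 6.55 CPM in the controls, with MS4A1 at 0 counts in all 6. Fibroblast markers summed to 34.7 to 39.8 CPM in the IRAIN libraries and 40.5 to 40.9 CPM in the controls, and epithelial markers to 35.1 to 40.6 CPM in the IRAIN libraries and 35.1 to 39.3 CPM in the controls. The part of these levels in the results below was not tested.

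In the IRAIN libraries BCL6, SOCS1, SOCS3, SOCS2, CISH and PIM1 were higher, STAT5A and PIM2 were lower, and STAT5B and PIM3 did not pass the test. The test was edgeR's quasi-likelihood test with Benjamini-Hochberg adjustment over all 18380 genes at a threshold of 0.05, two-sided, which called 39.3% of all genes, 20.3% higher and 18.9% lower. Against that background, 6 of the 10 genes were called higher and 2 lower. Of all tested genes, 62% had a mean CPM below that of the lowest of the 10, and differences are harder to call at lower counts. The shares over all genes are thus not matched for level. For 8 of the 10 genes the groups had separate CPM ranges, against 47.5% of all genes tested. By size, 6 of the 10 were called with a difference of at least 1.5-fold in either direction, against 10.3% of all genes, and 3 of the 10 were called at least 2-fold higher, against 3.06%. The median log2 fold change of the 10 genes was 0.58, and that of all tested genes was -0.00103. Whether replicate libraries stem from separate cultures is not stated, so p-values measure only the spread between these libraries, which may be technical. The RNA is of whole cultures, so a change in the share of cells that express a gene and a change in its RNA per cell cannot be told apart.

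**Figure D1:**
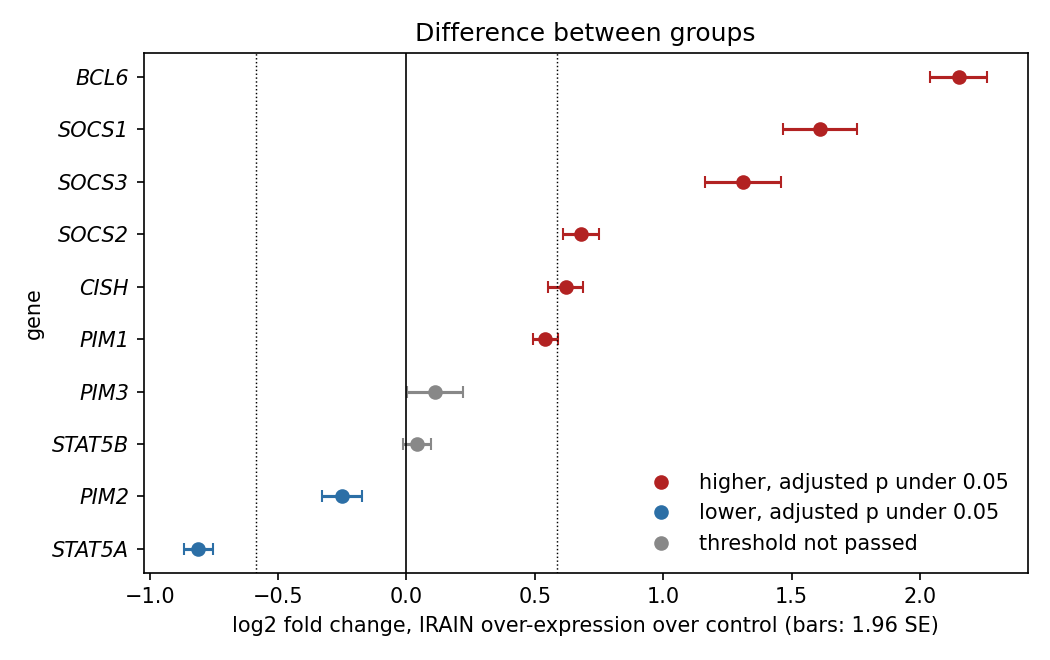
Log2 fold change (horizontal axis, IRAIN over-expression over control) of the 10 genes (vertical axis), as points with bars of 1.96 SE on either side; red and blue points passed an adjusted p of 0.05, grey ones did not, and the dotted lines mark a 1.5-fold change. BCL6 (2.15), SOCS1 (1.61) and SOCS3 (1.31) lie farthest to the right and STAT5A (-0.81) farthest to the left.

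The STAT5 genes themselves behaved unequally. STAT5A stood at 252, 246 and 245 CPM in the IRAIN libraries, against 424, 445 and 435 CPM in the controls. Every IRAIN library was below every control library. The log2 fold change was -0.81 ± 0.029 (SE; adjusted p by edgeR = 1e-32), which is 0.569 times the control level. STAT5B, which encodes a closely related protein, stood at 394, 390 and 393 CPM in the IRAIN libraries, against 371, 392 and 382 CPM in the controls. Here the groups overlapped, and the log2 fold change of 0.04 ± 0.028 (SE; adjusted p by edgeR = 0.28) had a 95% interval of -0.02 to 0.1, taken as 1.96 SE on either side. The sign of this small value turned to -0.01 after a correction for GC content and length.

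The genes lie side by side on chromosome 17 (GRCh38). STAT5B (ENSG00000173757.9) spans 42199168 to 42276707 on the minus strand and STAT5A (ENSG00000126561.16) spans 42287547 to 42311943 on the plus strand, 10839 bases apart. STAT3, whose protein answers to cytokines of the interleukin-6 family, follows 1.38 kb beyond STAT5A and was also lower (-0.23 ± 0.029; edgeR adjusted p = 8.1e-10). The log2 ratio of STAT5A to STAT5B was -0.65, -0.66 and -0.68 in the IRAIN libraries, against 0.19, 0.18 and 0.19 in the controls. STAT5A counts thus exceeded STAT5B counts in each control library and fell short of them in each IRAIN library. The ratio differed by -0.85 between the groups (exact permutation test, two-sided, p = 0.1, the smallest that 3 against 3 can give; adjusted over 5 ratios, 0.125).

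All 4 feedback inhibitors were higher in the IRAIN libraries. CISH, which competes with STAT5 for docking sites on cytokine receptors, stood at 214, 210 and 207 CPM in the IRAIN libraries, against 142, 133 and 136 CPM in the controls. The groups did not overlap, and the log2 fold change was 0.62 ± 0.035 (SE; adjusted p by edgeR = 3.5e-23). SOCS2, a regulator of growth hormone signalling, stood at 215, 219 and 226 CPM in the IRAIN libraries, against 137, 142 and 134 CPM in the controls. Its log2 fold change was 0.68 ± 0.035 (SE; adjusted p by edgeR = 3.6e-25), again with no overlap.

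SOCS1 and SOCS3, which can inhibit JAK kinases directly, were the less abundant inhibitors in the controls and had the larger rises. SOCS1 stood at 52.3, 48.3 and 47.7 CPM in the IRAIN libraries, against 17.4, 14.5 and 16.5 CPM in the controls. SOCS3 stood at 42.2, 39.5 and 41.7 CPM in the IRAIN libraries, against 15.3, 16.8 and 17.5 CPM in the controls. For both, the lowest IRAIN library held more than 2 times the CPM of the highest control library. The fold was 3.06 for SOCS1 (log2 1.61 ± 0.074 SE; adjusted p by edgeR = 2.1e-27) and 2.48 for SOCS3 (log2 1.31 ± 0.075 SE; adjusted p by edgeR = 7.8e-23). Of all tested genes, 1.67% had a larger absolute log2 fold change than SOCS1, and 2.69% than SOCS3.

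**Figure D2:**
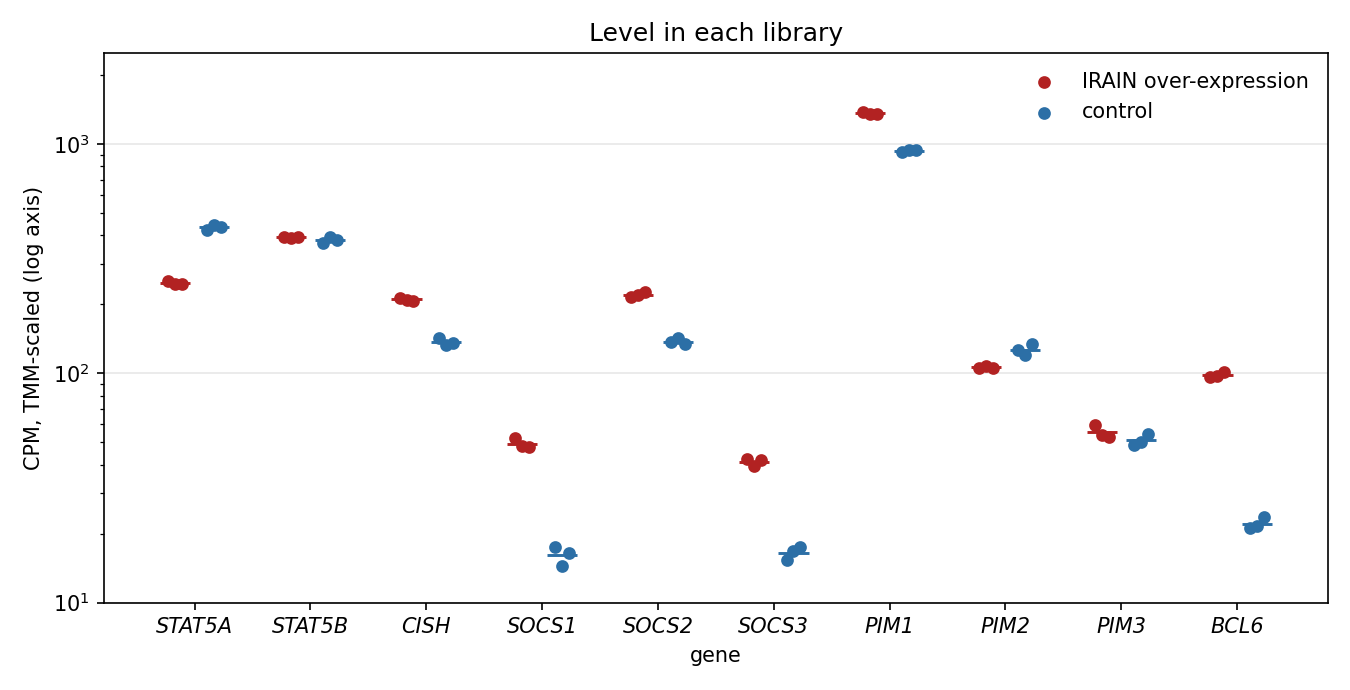
Level of each of the 10 genes (horizontal axis) in CPM (vertical axis, log scale) in each library, with 3 points for IRAIN over-expression (red, left) and 3 for control (blue, right) and a line at each mean. The groups separate for 8 genes, while STAT5B (390 to 394 against 371 to 392 CPM) and PIM3 (52.9 to 59.7 against 48.9 to 54.2 CPM) overlap.

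Among the PIM kinases, PIM1 was higher, PIM2 lower and PIM3 not called. PIM1 was the most abundant of the 10 genes and stood at 1380, 1350 and 1360 CPM in the IRAIN libraries, against 927, 946 and 943 CPM in the controls. The groups were far apart, at a log2 fold change of 0.54 ± 0.025 (SE; adjusted p by edgeR = 5.6e-27). PIM2 stood at 106, 108 and 106 CPM in the IRAIN libraries, against 126, 120 and 134 CPM in the controls. This difference was small but without overlap (log2 -0.25 ± 0.04 SE; adjusted p by edgeR = 7e-07). PIM3 stood at 59.7, 53.7 and 52.9 CPM in the IRAIN libraries, against 48.9, 50.2 and 54.2 CPM in the controls, with overlapping groups. Its log2 fold change of 0.11 ± 0.056 (SE; adjusted p by edgeR = 0.1) had an interval of 0 to 0.22. PIM3 passed the threshold at 0.15 without IRAIN replicate 3 (adjusted p = 0.047) and at 0.16 without the control column numbered 3 (adjusted p = 0.049). Its adjusted p ranged from 0.047 to 1 over all alternatives, which include a test against a 1.5-fold change. Its value was 0.01 after the GC and length correction.

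BCL6 had the largest change of the 10. It stood at 96, 97.3 and 101 CPM in the IRAIN libraries, against 21.1, 21.5 and 23.6 CPM in the controls. That is a 4.45-fold difference (log2 2.15 ± 0.057 SE; adjusted p by edgeR = 5.6e-40), and 0.892% of all tested genes had a larger absolute log2 fold change. In counts, the IRAIN libraries held 1093, 1238 and 1332 reads and the controls 253, 265 and 285. In edgeR's test against a 1.5-fold change, which called 3.75% of all genes (2.43% higher and 1.32% lower), 5 of the 10 genes passed: BCL6, SOCS1, SOCS2 and SOCS3 as higher and STAT5A as lower. CISH did not pass it (adjusted p = 0.83), nor did PIM1 (adjusted p = 1) or PIM2 (adjusted p = 1). DESeq2, which called 23.5% of 20474 genes (12% higher and 11.5% lower), also gave 6 higher and 2 lower calls among the 10.

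Around their transcript starts, CISH and BCL6 share a sequence feature. Both are known STAT5 targets, so the choice of genes is not independent of this feature. RefSeq promoter windows of 300 bases (250 before the start and 50 after, GRCh38.p14) were at hand for 9 of the 10 genes, all but SOCS2, in 13 windows, and were searched for TTCNNNGAA, the palindrome that STAT5 is known to bind, which reads the same on both strands. CISH and one of the windows of BCL6 held 4 copies each, and no other window held any. Of 35116 RefSeq promoter windows, 7.66% held at least 1 copy and 0.0199% (7 windows) at least 4. The stretches that hold these copies are shown because they belong to a gene that STAT5 is known to induce and a gene that it is known to repress, both of which were higher here. They are written 5′ to 3′ on the minus strand, on which both genes lie, with each copy in capitals.
CISH, distal pair, chr3:50611991-50612020: ccgttTTCCTGGAAagTTCTTGGAAatctg
CISH, proximal pair, chr3:50611832-50611907: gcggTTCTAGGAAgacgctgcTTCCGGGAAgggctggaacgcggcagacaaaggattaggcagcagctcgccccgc
BCL6, copy 1, chr3:187745477-187745506: gaagctcaaaTTCCGAGAAttgagctctgt
BCL6, copies 2 and 3, chr3:187745447-187745476: tgaTTCTTAGAActggggTTCTTAGAAgtg
BCL6, copy 4, chr3:187745419-187745448: tggtgatgcaagaagtTTCTAGGAAaggcc

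Counted from the RefSeq start, with negative positions before it, the CISH copies began at -241, -230, -129 and -112. The BCL6 copies began at -28, -5, 11 and 37, all inside a BCL6 exon of GENCODE 29 that starts farther upstream. The CISH stretch with the proximal pair lies between the longest CISH transcript and the next exon of MAPKAPK3, a kinase gene on the opposite strand. The stretch is inside the annotated span of MAPKAPK3 (50611520 to 50649297), which overlaps CISH. MAPKAPK3 stood at 63.5, 69.4 and 66.1 CPM in the IRAIN libraries, against 62.5, 66.8 and 61.4 CPM in the controls, and its log2 fold change of 0.06 ± 0.05 (SE; adjusted p by edgeR = 0.34) had an interval of -0.04 to 0.16. The tested counts left out some reads at MAPKAPK3, as the strand-resolved counts given below show. Of the tested genes with a window, 4 of 11113 had at least 4 copies in 1 window. The other two, ZNF112 and ZNF225, had log2 fold changes of -0.12 (edgeR adjusted p = 0.77) and -0.06 (edgeR adjusted p = 0.79). A copy of the motif is a match of letters, and binding was not measured.

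**Figure D3:**
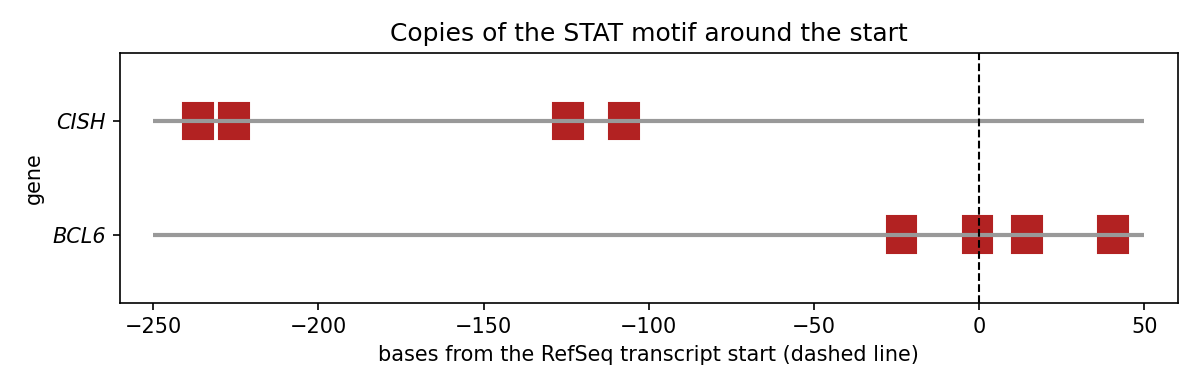
Copies of the STAT motif (red boxes, 9 bases each) along the 300-base windows of CISH and BCL6 (vertical axis), by distance in bases from the RefSeq transcript start (horizontal axis, dashed line at the start). The CISH copies form 2 pairs upstream, beginning at -241 to -112, and those of BCL6 lie around the start, beginning at -28 to 37.

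Ratios within a library show how related genes moved relative to each other, and scaling cancels in them. The log2 ratio of PIM1 to PIM2 averaged 3.68 ± 0.03 in the IRAIN libraries and 2.89 ± 0.083 in the controls (SD, n = 3 each), and that of PIM1 to PIM3 averaged 4.62 ± 0.083 in the IRAIN libraries and 4.2 ± 0.07 in the controls. SOCS1 to SOCS3 averaged 0.26 ± 0.061 in the IRAIN libraries and -0.04 ± 0.2 in the controls. For these ratios and for STAT5A to STAT5B the groups did not overlap, which gives the smallest two-sided p an exact permutation test can reach here (p = 0.1; 0.125 adjusted over 5 ratios). The ratio of CISH to SOCS2 averaged -0.07 ± 0.058 in the IRAIN libraries and -0.01 ± 0.077 in the controls, with overlap (exact permutation p = 0.3).

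**Figure D4:**
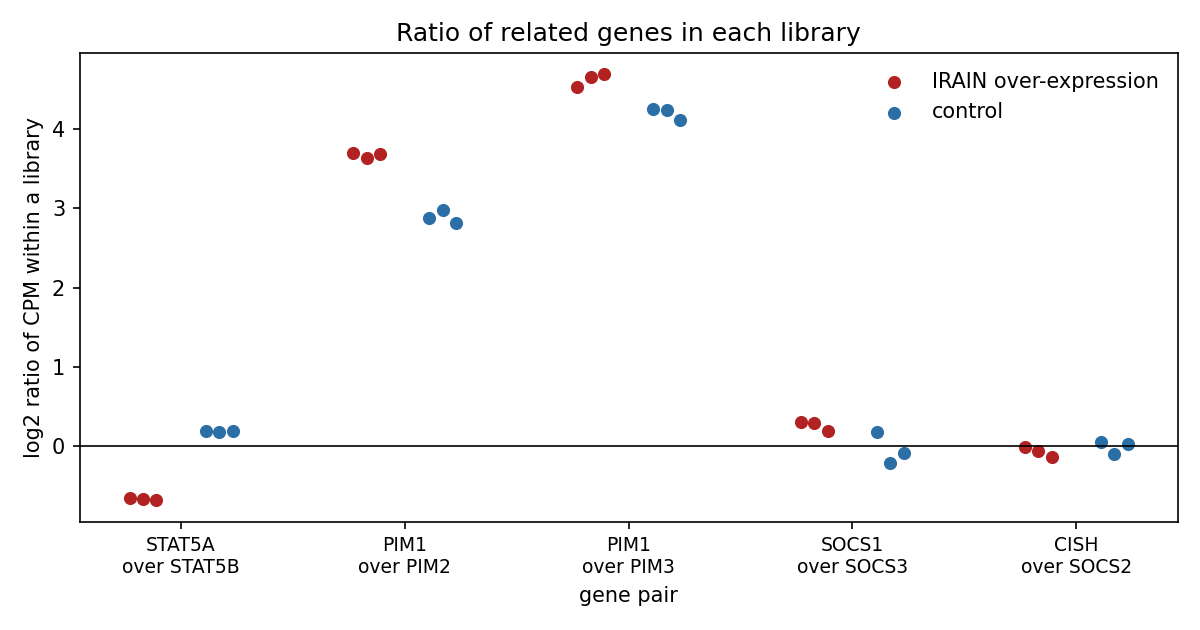
Log2 ratio of CPM between related genes (vertical axis) in each library, with 3 points for IRAIN over-expression (red, left) and 3 for control (blue, right) per gene pair (horizontal axis). The STAT5A to STAT5B ratio lies below 0 in the IRAIN libraries (-0.68 to -0.65) and above 0 in the controls (0.18 to 0.19), and the CISH to SOCS2 ratio overlaps.

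Levels between genes were compared per kilobase of exon (RPKM, from TMM-scaled counts and the union of GENCODE 29 exons). The union takes in every annotated exon of a gene, such as 5112 bases for CISH and 1796 for SOCS1. The order between genes therefore depends on the annotation. On that scale PIM1 was highest, at 458 ± 4.6 RPKM in the IRAIN libraries and 315 ± 3.3 RPKM in the controls (SD, n = 3 each). In the IRAIN libraries the order below it was STAT5B (60.9 ± 0.35), STAT5A (43 ± 0.64), CISH (41.1 ± 0.69), PIM2 (38.6 ± 0.45), SOCS2 (32.5 ± 0.76), SOCS1 (27.5 ± 1.4), PIM3 (22.5 ± 1.5), BCL6 (16.5 ± 0.46) and SOCS3 (15 ± 0.51 RPKM). In the controls it was STAT5A (75.6 ± 1.8), STAT5B (59.2 ± 1.6), PIM2 (45.9 ± 2.5), CISH (26.8 ± 0.87), PIM3 (20.8 ± 1.1), SOCS2 (20.3 ± 0.63), SOCS1 (8.97 ± 0.81), SOCS3 (6.05 ± 0.4) and BCL6 (3.72 ± 0.23 RPKM). Neighbours in either order had separate ranges, except PIM3 and SOCS2 in the controls. BCL6 was thus the lowest of the 10 in the controls and stood above SOCS3 in the IRAIN libraries.

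Strand was ignored in the deposited counts, so that the reads counted for a gene were not separated by strand. Annotated exons on the opposite strand overlap CISH (218 bases, MAPKAPK3), SOCS2 (277 bases, SOCS2-AS1) and BCL6 (171 bases of AC072022.1 and 318 bases of AC072022.2), and none overlap the other 7 genes. SOCS2-AS1 had 17.1 ± 1.8 CPM in the IRAIN libraries and 9.47 ± 0.72 CPM in the controls (SD, n = 3 each) and was higher too (log2 0.85 ± 0.11 SE; adjusted p by edgeR = 9.3e-10). AC072022.1 had 2, 3 and 5 deposited counts in the IRAIN libraries and 1, 2 and 1 in the controls. A second deposited table holds strand-resolved counts of 1 library, equal to those of IRAIN replicate 2 when strand is ignored. There AC072022.1 had 97 counts on the minor strand and 9 on the major strand, against 3 with strand ignored. Its deposited counts thus do not measure how much RNA overlaps BCL6. In this second table the 10 genes had 8.8% (PIM2) to 19.5% (SOCS1) of their counts on the minor strand, against 15.1% over all genes, and BCL6 had 11.6%, SOCS2 10.5% and CISH 13.9%. With strand ignored, CISH had 2671 counts, fewer than the 2673 on its major strand alone, beside 433 on the minor strand. SOCS2 (2790 against 2618 and 308) and BCL6 (1238 against 1186 and 155) likewise had fewer counts than on both strands together. PIM1, with no overlap, had 17190 against 15051 and 2139. The overlapping genes MAPKAPK3 (883 against 866 and 452) and SOCS2-AS1 (230 against 252 and 114) also had fewer counts than on both strands together. The deposited counts of the overlapped and the overlapping genes thus left out some reads there.

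The other genes of the pathway are given by list, and each count is to be read against the 20.3% of all tested genes called higher and the 18.9% called lower. The lists share some genes, such as CDKN1A, MYC and FOXO3, and a shared gene is counted in each of its lists. Of 11 tested JAKs and cytokine receptors, 3 were higher (LEPR, IL6ST and JAK1) and 4 lower (OSMR, EPOR, LIFR and JAK2), with a median log2 fold change of -0.11. JAK1 was close to the threshold, with overlapping groups (0.09 ± 0.038 SE; adjusted p by edgeR = 0.038), and 2 of the 11 were higher under upper-quartile scaling, no filter, the GC and length correction, DESeq2 and 3 of the 6 fits without 1 library. The receptor for leptin, LEPR, averaged 207 ± 2.3 CPM in the IRAIN libraries and 146 ± 4.3 CPM in the controls (SD, n = 3 each; log2 0.50 ± 0.034 SE; adjusted p by edgeR = 2.2e-19). IL6ST, the shared receptor subunit of the interleukin-6 family, rose by 0.46 ± 0.047, and LIFR, its partner for LIF, changed by -0.32 ± 0.07. The counts assigned to OSMR changed by -0.86 ± 0.2. In the strand-resolved table OSMR had 184 counts on the strand that is minor over all genes and 12 on the other. The same library had 36 with strand ignored, so the tested counts left out reads at this gene. Which RNA these counts measure was not tested. EPOR, the erythropoietin receptor that signals through JAK2 and STAT5, averaged 14.1 ± 0.56 CPM in the IRAIN libraries and 17.9 ± 1.7 CPM in the controls (log2 -0.34 ± 0.096 SE; adjusted p by edgeR = 0.0026), and JAK2 changed by -0.11 ± 0.038. Among the other STATs, 3 of 4 tested were lower (STAT3, STAT6 and STAT2) and none higher. STAT6, the interleukin-4 mediator, changed by -0.27 ± 0.053 (SE; adjusted p by edgeR = 3.1e-05).

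Of the remaining SOCS genes and the ubiquitin ligase parts that SOCS proteins recruit, 1 of 10 was higher (SOCS7, 0.23 ± 0.054) and 1 lower (the scaffold CUL5, -0.20 ± 0.038), with a median of -0.02. SOCS4, SOCS5 and SOCS6 did not pass the test, at log2 fold changes of -0.03, 0.18 and 0.03. Among 14 other brakes on JAK-STAT signalling, 3 were higher (PTPRC, DUSP22 and PIAS4) and 2 lower (PTPN11 and SH2B3), with a median of 0.04. PIAS4 was the closest of these to the threshold (0.20 ± 0.075 SE, adjusted p by edgeR = 0.027). Only 2 of the 14 were higher under DESeq2, the GC and length correction, without IRAIN replicate 2 and without each control column. PTPRC, the phosphatase CD45, averaged 122 ± 5.8 CPM in the IRAIN libraries and 54 ± 0.85 CPM in the controls (SD, n = 3 each; log2 1.17 ± 0.046 SE; adjusted p by edgeR = 4.9e-31). The phosphatase DUSP22 rose by 0.31 ± 0.064, whereas the phosphatase PTPN11 and the adaptor SH2B3 changed by -0.18 ± 0.03 and -0.11 ± 0.031.

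Of 12 tested genes that STAT5 is known to induce beyond the 10, 4 were higher (CDKN1A, GFI1B, BCL2L1 and MYC) and 3 lower (CCND1, TFRC and MCL1), with a median of 0.08. CDKN1A, the cell cycle inhibitor p21, averaged 57.3 ± 2.6 CPM in the IRAIN libraries and 22.8 ± 1.2 CPM in the controls (SD, n = 3 each; log2 1.32 ± 0.065 SE; adjusted p by edgeR = 5e-26), and the erythroid repressor GFI1B rose by 0.43 ± 0.05. CCND1, a G1 cyclin, and TFRC, the transferrin receptor, changed by -2.28 ± 0.14 and -0.35 ± 0.026. BCL2L1 had 270 counts on the minor strand and 2301 on the major strand in the strand-resolved table. The same library had 1171 with strand ignored, so the tested counts left out reads at BCL2L1. Among so few genes, 4 and 3 of 12 do not set the list apart from the 20.3% and 18.9% over all genes.

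**Figure D5:**
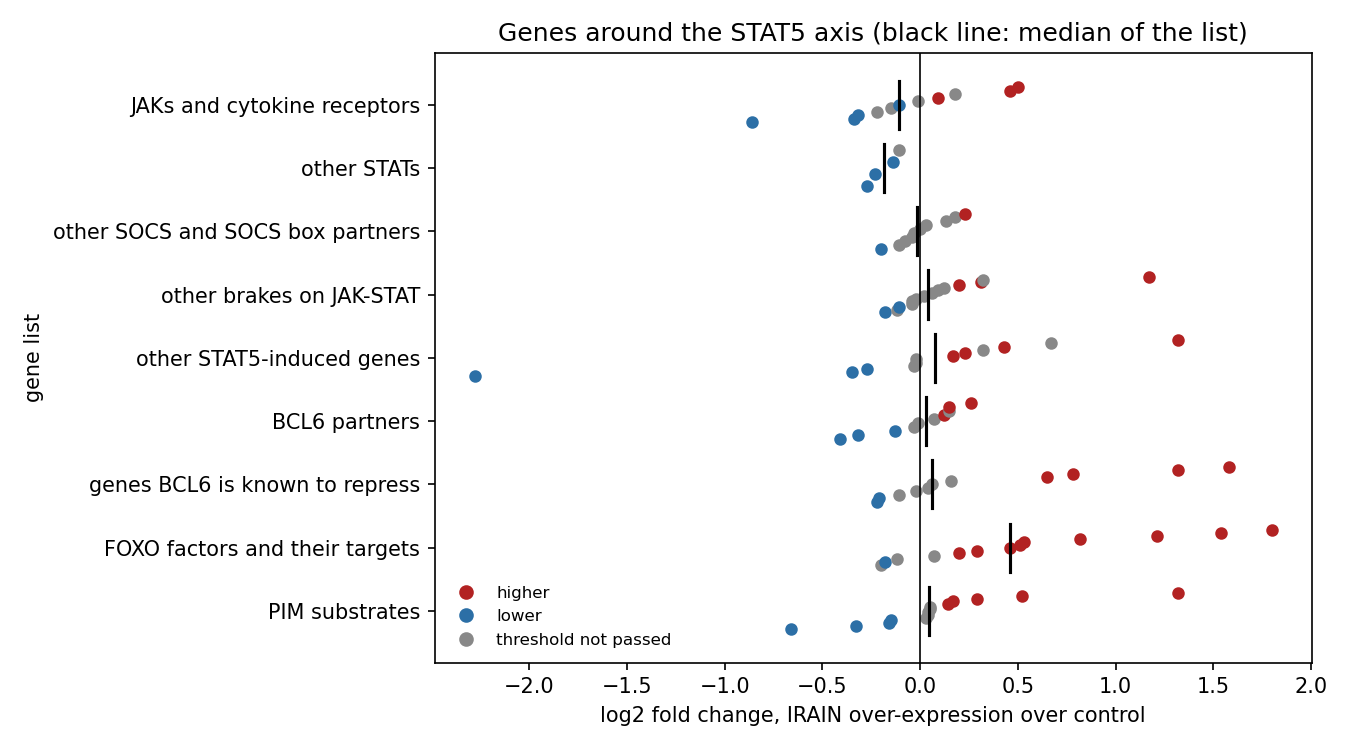
Log2 fold change (horizontal axis, IRAIN over-expression over control) of each tested gene in 9 lists around the STAT5 axis (vertical axis); red points were called higher, blue points lower, grey points did not pass the test, and black lines are the medians of the lists. Medians lie between -0.18 and 0.08 except for the FOXO list, at 0.46.

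BCL6 works with corepressors, and of 10 tested partners or relatives 3 were higher (NCOR1 and HDAC4 among them) and 3 lower (BCL6B, HDAC3 and BCOR), with a median of 0.03. The corepressor NCOR1 rose by 0.12 ± 0.032, and the deacetylase HDAC3 and the corepressor BCOR changed by -0.32 ± 0.044 and -0.13 ± 0.031. After the GC and length correction 1 of the 10 was higher, and NCOR1 no longer passed the test (0.02, adjusted p = 0.6). Its adjusted p ranged from 0.00094 to 1 over its alternatives, which include the test against a 1.5-fold change. Of 11 tested genes that BCL6 is known to repress, 4 were higher (PRDM1, CDKN1A, CD80 and CD69) and 2 lower (ATR and CHEK1), with a median of 0.06. PRDM1, a repressor that drives plasma cell differentiation, had 12.1 ± 1.4 CPM in the IRAIN libraries and 4.07 ± 0.15 CPM in the controls (SD, n = 3 each; log2 1.58 ± 0.14 SE; adjusted p by edgeR = 1.2e-14). The surface protein CD69 rose by 0.65 ± 0.047, and the checkpoint kinases ATR and CHEK1 changed by -0.22 ± 0.037 and -0.21 ± 0.037.

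FOXO factors, which AKT keeps out of the nucleus, are known to induce BCL6. Of 13 tested genes for FOXO factors and their known targets, 9 were higher and 1 lower (CITED2), against 20.3% and 18.9% of all genes, with a median log2 fold change of 0.46 beside -0.00103 over all genes. The factors FOXO1, FOXO3 and FOXO4 were among those higher, at 0.46 ± 0.1, 0.29 ± 0.043 and 0.53 ± 0.075. TXNIP, an inhibitor of thioredoxin, averaged 761 ± 5.4 CPM in the IRAIN libraries and 430 ± 3.8 CPM in the controls (SD, n = 3 each; log2 0.82 ± 0.027 SE; adjusted p by edgeR = 2.6e-35). SESN3, a sestrin that restrains mTORC1, stood at 74.3 ± 6.9 CPM in the IRAIN libraries and 25.6 ± 1.9 CPM in the controls (log2 1.54 ± 0.064 SE; adjusted p by edgeR = 1.4e-29). CITED2 changed by -0.18 ± 0.048. Of the 9, KLF2 and PIK3IP1 had 46.2% and 47.8% of their counts on the minor strand in the strand-resolved table. In the test against a 1.5-fold change, 3 of the 13 passed as higher and none as lower. DESeq2 called 7 higher and 1 lower, and 7 were also higher without the control column numbered 2. The list was chosen with earlier results of these data known, so its counts are not an independent test. Any link to the level of BCL6 was not tested.

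Among 14 tested substrates of PIM kinases, 5 were higher (CDKN1A, EIF4EBP1, FOXO3, MYC and NUMA1) and 4 lower (BAD, MYB, CDC25A and MAP3K5), with a median of 0.04. The translation repressor EIF4EBP1 averaged 118 ± 3.7 CPM in the IRAIN libraries and 82.1 ± 1.1 CPM in the controls (SD, n = 3 each; log2 0.52 ± 0.042 SE; adjusted p by edgeR = 1.6e-16). BAD, a death-promoting protein that PIM kinases inactivate, stood at 2.72 ± 0.12 CPM in the IRAIN libraries and 4.29 ± 0.078 CPM in the controls (log2 -0.66 ± 0.2 SE, adjusted p by edgeR = 0.0056). It did not pass in DESeq2 (adjusted p = 0.072). The adjusted p of BAD ranged from 0.0015 to 1 over its alternatives, which include the test against a 1.5-fold change. The transcription factor MYB changed by -0.33 ± 0.028 and was the 1 substrate of these 4 that DESeq2 called lower, so CDC25A and MAP3K5 did not pass there either. In the strand-resolved table BAD had 45 counts on the minor strand and 134 on the major strand, and NUMA1 had 890 and 2734. With strand ignored, the same library had 35 for BAD and 1882 for NUMA1. The tested counts thus left out reads at both genes, most of them at BAD.

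Some genes outside the pathway had profiles close to those of BCL6, SOCS1 and SOCS3, measured as the Euclidean distance between log2 CPM values centred on their mean over the 6 libraries, among 11673 genes at 5 CPM or more. Nearest to BCL6 were PPP1R14C, an inhibitor of protein phosphatase 1 (distance 0.12), GDF15, a secreted stress factor (0.185), and the kinase LRRK2 (0.188). For SOCS1 they were the pseudogene CYP4F29P (0.138), ALAS2, the erythroid enzyme that begins heme synthesis (0.168), and the cytokine receptor subunit IL20RB (0.186). SOCS3 was closest to the pseudogenes ANKRD20A21P (0.15) and ANKRD20A11P (0.159), which have near-identical copies, and to the receptor LRP1 (0.176). With 2 groups this measure mainly ranks genes by the size and direction of their change.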

How the data were processed

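RNA of 6 K562 libraries was sequenced. The submitters' processing notes name STAR and hg38 (GRCh38), and the sources used here state no version or counting annotation. Deposited by the authors were raw whole-number counts per gene, not normalized, plus a second table of strand-resolved counts of 1 library, with no header. The over-expression columns match sample titles; the control columns name only the group and are called by their column number. Of 58440 identifiers, 58320 matched GENCODE 29 and 57754 a table of gene names.

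The test was edgeR 4.0.16 (R 4.3.3) quasi-likelihood on the deposited counts with TMM factors, filterByExpr and group as the sole term, checked on simulated data. The SE is the log2 fold change divided by the square root of F. CPM and RPKM use TMM-scaled library sizes. Totals were 11558983 to 13303139 counts. Chi-square per degree of freedom between libraries was 1.36 to 2.31 within groups, above sampling noise, so each counted as 1 replicate. Motif windows are from RefSeq (GRCh38.p14).

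Members and lists were chosen with earlier results of these data known. All 10 members are named, and of each further list up to 2 higher and 2 lower genes of smallest p. PRDM1, the FOXO factors, EPOR, JAK1, JAK2, KLF2, PIK3IP1, SOCS4, SOCS5, SOCS6, MAPKAPK3, the genes sharing 4 motif copies and the other genes named to complete a count were added after their values were seen. The nearest profiles used log2(CPM + 0.5) and the 3 members of largest absolute change. Alternatives were RLE and upper-quartile scaling, other filters, DESeq2 1.42.0, limma-voom 3.58.1, a test against a 1.5-fold change, a GC and length correction (smooth trend per library, mgcv 1.9.3), the column number as a block and leaving out each library. One gene that this rule names is not reported here.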

Additional observations from a re-analysis of the deposited data

How the results depend on the processing

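The 6 higher and 2 lower calls among the 10 genes were the same in number under RLE and upper-quartile scaling, no filter, a minimum of 1 CPM in 3 libraries, limma-voom, DESeq2 and the GC and length correction, and leaving out each library gave 6 to 7 higher and 2 lower. Over all 18380 genes, 7217 were called. Fits without 1 library, in which genes were filtered anew, called 6334 to 6749, and DESeq2 called 4813 of 20474. In the test against a 1.5-fold change, which asks for larger effects by construction, 689 genes were called and 1 of the 10 was lower. Higher and lower calls in that test were 0 and 0 for JAKs and receptors, 0 lower for other STATs, 0 and 0 for SOCS partners, 1 and 0 for other brakes, 1 and 1 for STAT5-induced genes, 0 and 0 for BCL6 partners, 2 and 0 for genes BCL6 represses, 3 and 0 for the FOXO list, and 1 and 0 for PIM substrates. CDKN1A stands in the lists of STAT5-induced genes, genes BCL6 represses and PIM substrates, so these counts are not separate genes. After the GC and length correction, 2 SOCS partners and 4 other brakes were lower, 1 BCL6 partner was higher, and STAT5B turned to -0.01; the cause was not tested. DESeq2 called 1 PIM substrate lower. Without 1 library, SOCS partners had 1 to 2 higher, and the FOXO list had 7 to 9 higher and 1 to 2 lower. The differences in log2 ratio ranged over their alternatives from -0.86 to -0.84 for STAT5A to STAT5B, 0.75 to 0.83 for PIM1 to PIM2, 0.38 to 0.47 for PIM1 to PIM3, 0.22 to 0.41 for SOCS1 to SOCS3 and -0.1 to -0.03 for CISH to SOCS2. With the column number as a replicate block, 7077 genes were called, and no call among the 10 changed. Same-numbered libraries did not deviate together (correlations of -0.0423, -0.00568 and -0.0134). Deviations from a mean of 3 libraries could miss a pairing, so whether the numbers pair them is not settled.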

Other observations

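Within 500 kb of PIM1, 7 of 11 tested genes were higher and none lower, against 20.3% higher and 18.9% lower over all tested genes, with a median log2 fold change of 0.12. These windows were chosen after the values were seen. CDKN1A, 483 kb from PIM1 and itself a known STAT5 target, had the largest of these rises (1.32 ± 0.065 SE), followed by TMEM217 (1.24 ± 0.24), a gene at 3.64 CPM in the IRAIN libraries and 1.54 CPM in the controls, and TBC1D22B (0.55 ± 0.049). Around SOCS2, 7 of 12 were higher and 1 lower, with a median of 0.38, among them the overlapping SOCS2-AS1 (0.85 ± 0.11), NUDT4 (0.33 ± 0.029) and CRADD (0.45 ± 0.063), whereas UBE2N changed by -0.28 ± 0.037. Around STAT5A, 9 of 48 were higher and 11 lower, with a median of -0.02. Higher and lower genes numbered 8 and 12 of 45 around STAT5B, 4 and 3 of 22 around CISH, 5 and 2 of 18 around SOCS1, 5 and 7 of 17 around SOCS3, 10 and 4 of 37 around PIM2, and 2 and 6 of 28 around PIM3. The windows of STAT5A and STAT5B share most of their genes, and STAT5A is itself among the 12 lower around STAT5B. The 1 tested neighbour of BCL6, ENSG00000280270, was lower (-1.37; adjusted p by edgeR = 0.0081), at 0.422 CPM in the IRAIN libraries and 1.13 CPM in the controls.

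Across all tested genes with a RefSeq promoter window, the calls were also counted by copies of TTCNNNGAA. Of 951 genes with at least 1 copy, 21.1% were higher and 22.9% lower, and of 48 with at least 2 copies, 27.1% were higher and 18.8% lower. Over all 11113 such genes, 23.5% were higher and 22.7% lower. These counts were made after the motif was seen in CISH and BCL6.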
